A study of Mus musculus with 32 samples.

Results

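Whole brains of wild-type (WT) and Dhcr7-KO mice were compared for the transcript differences that the 4 sampled stages have in common. The comparison set the 16 KO libraries against the 16 WT libraries with 1 KO effect for all stages and with the stage as an additive block, so all 32 of the study's 32 libraries entered it. WT animals were Dhcr7+/+ and KO animals Dhcr7-/-, and both were of strain C57BL/6J. Brains came from embryos staged E12.5, E14.5 or E16.5 in days of gestation, or from pups on postnatal day 0 (PND0), with 4 libraries per genotype at each stage. The labels state neither how the allele was made nor the litter or sex of a brain, nor whether replicates came from separate animals. The p-values therefore measure the spread between these libraries, which may in part be technical. Genes of interest were those that passed the threshold in the pooled comparison, had the same sign of change at each of the 4 stages, and passed the threshold at no stage taken alone.

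Dhcr7 encodes the reductase that completes cholesterol synthesis, and mice without it model the human disorder Smith-Lemli-Opitz syndrome. The developing brain makes most of its own cholesterol, because lipoproteins of the blood do not reach it once the barrier has formed. When sterol in the endoplasmic reticulum is low, the transcription factor SREBP-2, the product of Srebf2, is released to the nucleus and turns on genes of cholesterol synthesis and uptake. The liver X receptors (LXR) act in the other direction: oxysterols and related sterols activate them, and their targets, among them Abca1, Abcg1, Srebf1 and Lpcat3, serve sterol export and lipid remodelling.

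Libraries held 13.87 M to 28.32 M counts (M, 1000000) over 24445 to 27177 detected genes. Levels are in CPM, counts scaled to a library of 1000000. A count of 0 allowed up to 3 counts, or 0.1059 to 0.2163 CPM by library, a limit that covers counting error only. E12.5 KO replicate 1 stood apart: 5.639% of its counts fell on a single ribosomal RNA gene, CT010467.1. The next highest share was 3.754%, in E16.5 WT replicate 1, and the other 30 libraries had 2.785% or less. Counts of genes are given with and without E12.5 KO replicate 1. Of the 22 genes described below, 22 still passed without it and 21 without both libraries. By the Y-linked gene Ddx3y, both genotypes had libraries with and without a Y chromosome at each stage (1 to 3 of 4 above 1 CPM). The targeted transcript was low in every KO library. Dhcr7 (chr7:143823145-143848410, plus strand, GRCm38) measured 58.8 to 104 CPM in the WT libraries and 11.8 to 26.6 CPM in the KO libraries. Its pooled log2 fold change, KO minus WT as everywhere below, was -2.13 ± 0.0974 (standard error, SE), with an adjusted p of 7.79e-17.

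Pooling the stages brought out 59 genes, and most of the changes were small. In the KO brains 47 genes were higher and 12 were lower, and 52 of the 59 differed by less than 1.5-fold. Genes passed at an adjusted p under 0.05 (Benjamini-Hochberg, edgeR's quasi-likelihood test, 19541 genes tested), so the share past it was 0.302%, with 0.241% higher and 0.0614% lower. An unadjusted p under 0.05 was seen for 2091 genes (10.7%). Of the 59, 58 could be tested at each stage and 57 of these had the same sign 4 times, where 13.7% of the 15750 genes testable at each stage did. The 59 were chosen by a common effect in the same libraries, which favours a shared sign, so nothing is read from that difference. The single-stage tests passed 3 (0.0177%), 94 (0.527%), 8 (0.0462%) and 250 genes (1.44%), from the youngest stage to the oldest. Biological coefficients of variation, the spread between libraries of a group beyond counting noise, were 19.91%, 6.25%, 9.99% and 16.59% in the same order. Without E12.5 KO replicate 1 the pooled test passed 91 genes higher and 16 lower, the 59 among them. Summing the signed z values of the 4 single-stage tests, which lets each stage keep its own spread, passed 113 higher and 66 lower, 58 of the 59 among them.

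The genes that only the pooled comparison showed numbered 22, or 0.113% of those tested, with 18 higher and 4 lower. Higher in KO were Mvk, Fdps, Mrgprf, Lpcat1, Vps51, Arrdc2, Nsmf, Kctd13, Stard4, Aggf1, Gm3571, Bok, Mrps18a, Ampd2, Map11, Pip4p1, Ypel3 and Lztr1, and lower were Tpcn2, Lpcat3, Zfp275 and Atp10b. They include a pair of enzymes of cholesterol synthesis, a sterol carrier, enzymes that remodel phospholipids and proteins of endosomes and lysosomes. Their pooled log2 fold changes had a median size of 0.23 and ran from 0.14 to 0.80 in size, and 14 of the 22 differed by less than 1.2-fold. Each had between 14 and 16 of the 16 KO libraries on the side of its change, relative to the WT mean of the library's stage. WT and KO libraries did not overlap at 1 stage for 6 of them, at 2 stages for 11 and at 3 stages for 5. At no stage did any of the 22 pass the threshold, by the way they were chosen, but 12 had an unadjusted p under 0.05 at 3 stages and 2, Mvk and Kctd13, at all 4. Of all genes testable at each stage, 1.67% were free of overlap in the same direction at 2 or more stages, and 1.36% had 1 sign with an unadjusted p under 0.05 at 2 or more. The 22 were chosen from the same libraries, so nothing is read from these shares. Without E12.5 KO replicate 1 such genes numbered 56, the 22 among them, and without E16.5 WT replicate 1 they numbered 39. They came to 14 without E12.5 WT replicate 2 and 14 without E16.5 WT replicate 4.

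**Figure D1:**
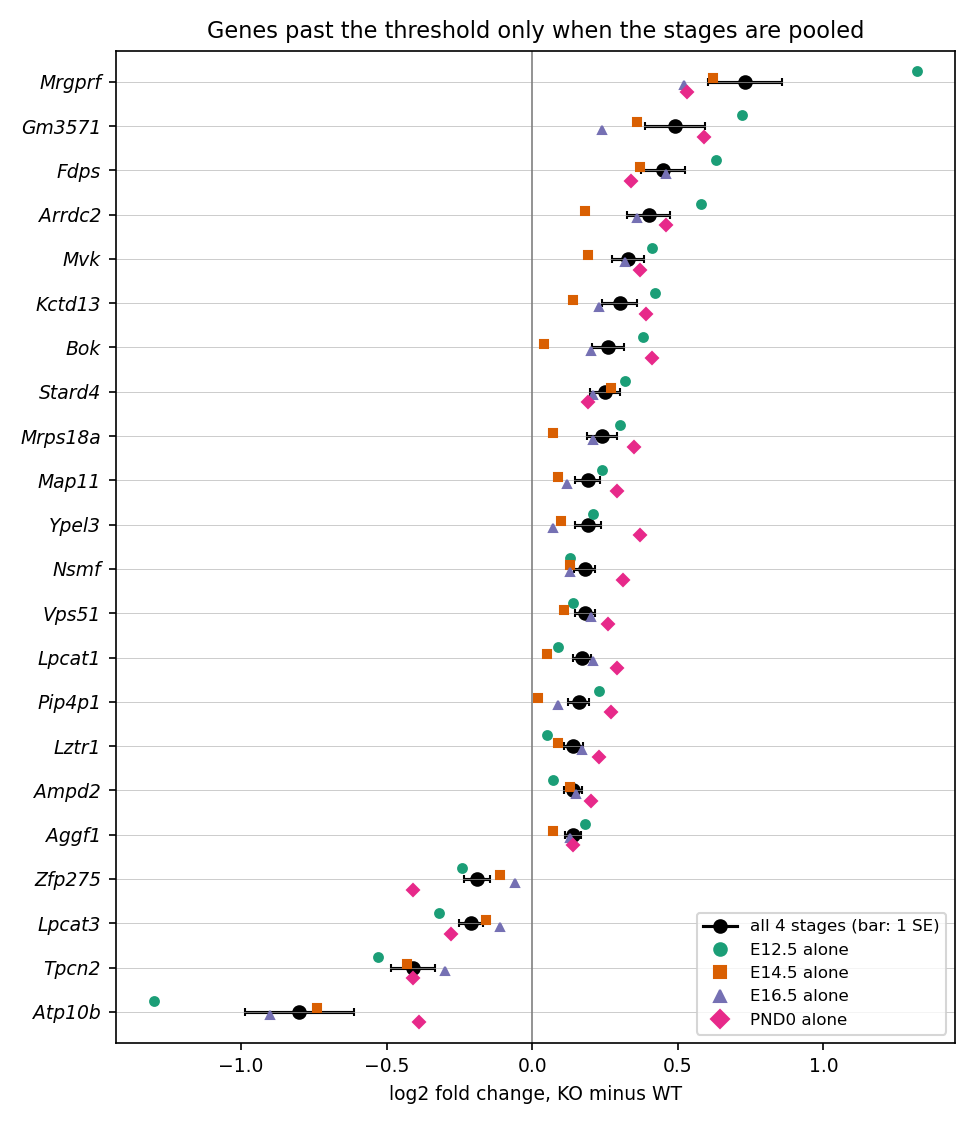
The x axis is the log2 fold change (KO minus WT) of the 22 genes that passed the threshold only with the stages pooled. Black points are the fit of all 32 libraries with 1 SE, and coloured points are the fits of the 8 libraries of each stage. All coloured points of a gene lie on the same side of 0, by the choice of these genes. None has its largest change at E14.5 or E16.5, where the spread was narrower and the choice leaves out large changes more readily.

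The 22 differed by stage in size, if not in sign. The largest single-stage change fell at E12.5 for 11 genes and at PND0 for the other 11, the stages with the widest spread between libraries. In stage order, the median size of their log2 fold changes was 0.31, 0.13, 0.20 and 0.35. Choosing genes that passed at no stage alone leaves out large changes more readily where the spread is narrow. Nothing is therefore read from this split or from these medians. A test of whether the KO effect differed between stages passed for none of the 22 in edgeR, with 4 (Bok, Lpcat1, Pip4p1 and Zfp275) at an unadjusted p under 0.05, and for Lpcat1 in DESeq2. Over all genes that test passed 5 (0.0256%) in edgeR and 346 in DESeq2. Its edgeR count moved with single libraries, to 797 without E12.5 KO replicate 1 and to 0 without any of 12 others, and none of the 22 passed in any of these 32 fits. Without both E12.5 KO replicate 1 and E16.5 WT replicate 1, edgeR passed 731 genes, and of the 22 Lpcat1 alone. A miss in this test does not show that the effects were equal. Lztr1, at an adjusted p of 0.0484, lay just inside the threshold, and Cyth2, a guanine nucleotide exchange factor for ADP-ribosylation factors, just outside at 0.0503 with log2 fold change 0.19.

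The mevalonate pathway held the clearest of the 22. Mvk, mevalonate kinase (chr5:114444269-114460591, plus strand), measured 44.6, 46.5, 41.5 and 47.9 CPM in the WT libraries at E12.5 against 76, 61.6, 61.8 and 45.4 in KO. At E14.5 the WT libraries had 41.1, 34.2, 37.3 and 37.7 CPM and the KO libraries 43.7, 45.2, 38.8 and 42.4. The groups overlapped at both of these stages, because KO replicate 4 was low at E12.5 and KO replicate 3 at E14.5. At E16.5 the WT values were 38.7, 44.9, 37.9 and 44.8 CPM and the KO values 54.6, 54.8, 52.2 and 47.1. At PND0 they were 44.5, 49.1, 51 and 38.2 against 63.7, 51.4, 64.9 and 56 CPM. At these later stages each KO library lay above each WT library. Pooled over the stages, Mvk had a log2 fold change of 0.33 ± 0.055 (SE), 25.6% higher in KO, with an adjusted p of 0.000704 and all 16 KO libraries above the WT mean of their stage. Taken alone, the stages gave adjusted p between 0.0923 and 0.875. Without E12.5 KO replicate 1, its highest library, Mvk stood at 0.30 with an adjusted p of 0.000567.

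Fdps, farnesyl diphosphate synthase, makes the chain from which sterols and isoprenoids branch (chr3:89093588-89101959, minus strand). At E12.5 it measured 4.96, 5.65, 5.14 and 6.4 CPM in WT and 8.03, 9.02, 8.85 and 8.95 in KO. At E16.5 the values were 6.9, 6.57, 5.81 and 4.42 in WT and 8.07, 7.45, 8.54 and 8.76 in KO. WT and KO were apart at both stages. At E14.5 the WT values of 6.51, 6.27, 6.36 and 7.1 CPM overlapped the KO values of 10.3, 8.79, 6.93 and 7.67. At PND0 the 4 KO libraries lay between 11.5 and 11.8 CPM, above WT values of 11.2, 5.88, 10.1 and 9.86. Over the 4 stages the log2 fold change was 0.45 ± 0.0762 (SE), with an adjusted p of 0.000774 and all 16 KO libraries above the WT mean of their stage. The gene shares 26.7% of its exonic bases with Gm43738 on the same strand, and its counts depend on how reads in that stretch were assigned.

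Gm3571, which also passed only in the pooled test, is a processed copy of Fdps on another chromosome. The 2 transcripts align over 1062 bases with 10 mismatches and 2 gapped positions. The stretch of 90 bases of Fdps coding sequence with the most differences (chr3:89099331-89099420, minus strand) and its counterpart in Gm3571 (chr10:93778821-93778910, plus strand) are printed to show how little separates them, with the 3 mismatched bases in capitals:
Fdps: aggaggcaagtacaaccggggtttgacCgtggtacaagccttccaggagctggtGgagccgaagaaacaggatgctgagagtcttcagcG
Gm3571: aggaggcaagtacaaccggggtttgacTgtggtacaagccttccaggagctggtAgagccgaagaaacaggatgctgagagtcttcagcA
Reads of 150 bases that hold none of these mismatches match both, so the 2 genes are not separate evidence and the level of either is uncertain. Gm3571 had 7.69 ± 0.669 CPM in WT and 12.9 ± 3.89 in KO at E12.5 (SD, n = 4 each). The E14.5 values were 5.31 ± 1.09 and 6.78 ± 1.09 CPM, those of E16.5 9.36 ± 1.96 and 11.1 ± 1.8, and those of PND0 7.61 ± 2.47 and 11.4 ± 1.04. Its pooled log2 fold change was 0.49 ± 0.103 (SE) with an adjusted p of 0.0169, close to that of Fdps. E12.5 KO replicate 1 was its highest library at 18 CPM, and without it the log2 fold change was 0.43 with an adjusted p of 0.0202.

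With Mvk and Fdps, 16 of the 20 genes listed for cholesterol synthesis, Dhcr7 apart, passed as higher in KO and none as lower. The median log2 fold change of the list was 0.36, against 0.00 over all genes tested, and 18 of the 20 were higher at each stage. Over all 15750 genes testable at each stage, 1119 were higher at each. The list was drawn up with earlier results of these libraries known, so its direction is not independent evidence. The first steps, from acetyl-CoA to mevalonate, gave Acat2 0.37 and Hmgcs1 0.52. Squalene and ring-forming steps gave Fdft1 0.45, Sqle 0.41 and Lss 0.38. The later steps gave Cyp51 0.35, Tm7sf2 0.34, Msmo1 0.44, Nsdhl 0.44 and Sc5d 0.25. Mvd, which completes the mevalonate branch, stood at 0.52 and Idi1 at 0.40. Each of these 12 had passed at 1 or more single stages. Not past the threshold were Hsd17b7 (0.28, adjusted p = 0.0509), Pmvk (0.23, 0.168), Ebp (0.16, 0.468) and Ggps1 (-0.03, 0.829), which makes the longer isoprenoid for protein prenylation and leaves the sterol branch. For Acat2, Fdft1 and Idi1 the annotation holds copies at least 97.4% identical over long stretches (Acat3, Gm6781 and Gm13502), so their counts may be shared.

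**Figure D2:**
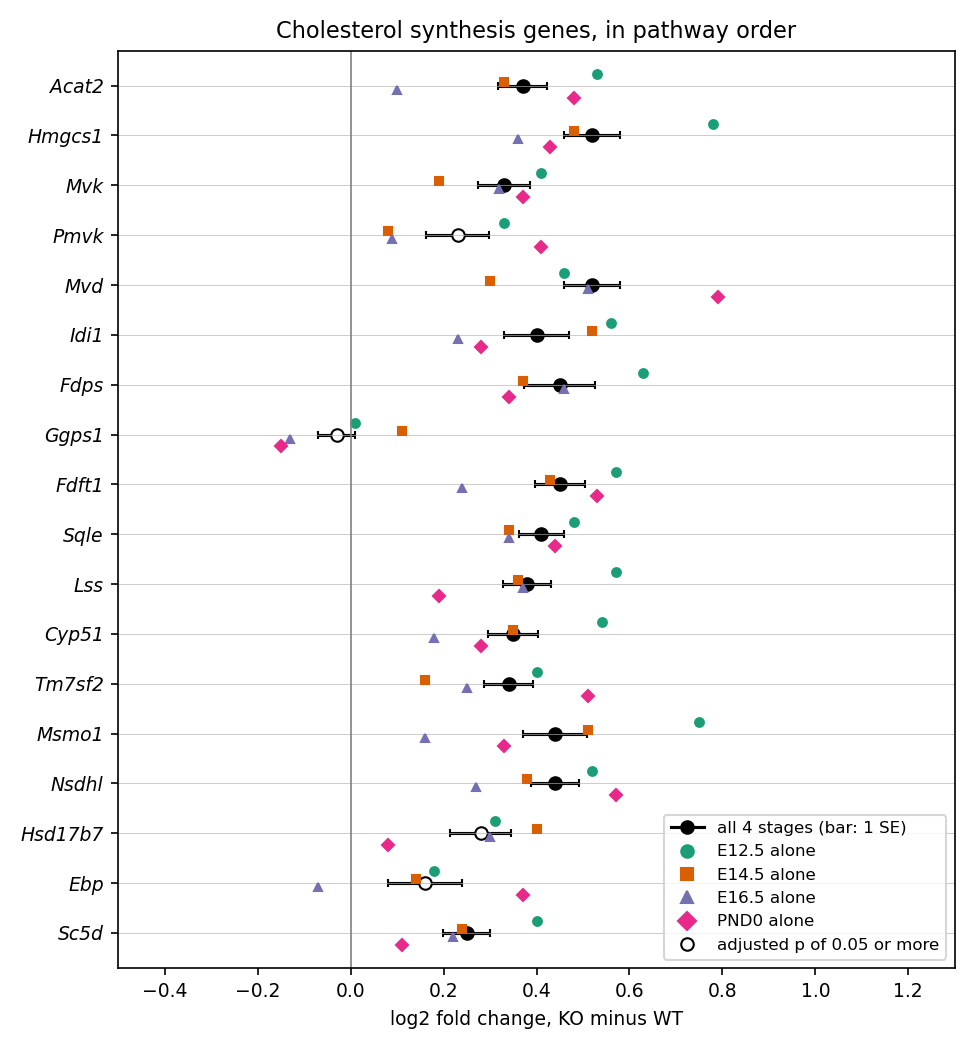
The x axis is the log2 fold change (KO minus WT) of 18 cholesterol synthesis genes, from early steps at the top to late steps at the bottom. Filled black points passed the threshold in the fit of all 32 libraries (bar, 1 SE), open points did not, and coloured points are the single stages. Points lie to the right of 0 except the pooled, E16.5 and PND0 points of Ggps1 and the E16.5 point of Ebp.

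The promoters of these genes were read for letters that SREBP-2 and its partner NF-Y are known to bind. RefSeq windows of 250 bases before to 50 after the start (GRCm38.p6) matched 31 of the 47 genes higher in KO and 8 of the 12 lower. A gene may have several windows and counted if any of them held the letters. The letters CCAAT, searched on both strands, were found for 23 of the 31 genes (74.2%) and 5 of the 8 (62.5%). Of the 13066 tested genes with a window, 42.3% had them. Among the 22 they were found for 7 of 11 higher genes with a window (63.6%) and for all 3 such lower genes. The sterol regulatory element core TCACNCCAC was found for 2 of the 31 (6.45%), Hmgcs1 and Ampd2, and for 1.45% of all genes with a window. The LXR element, AGGTCA and AGGTCA again with any 4 bases between, was found for none of the 13066 genes. Such matches describe the sequence and show no binding. Stretches upstream of exons are shown for a gene with the sterol element, for a synthesis enzyme that passed only in the pooled test, for the gene with the lowest adjusted p in the pathway and for 2 lower genes that passed only in the pooled test. Capitals mark the matched letters, and CCAAT on the other strand reads ATTGG:
Hmgcs1, chr13:119690184-119690252, plus strand: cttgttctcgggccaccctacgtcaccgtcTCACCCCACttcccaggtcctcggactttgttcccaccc
Mvk, chr5:114444172-114444236, plus strand: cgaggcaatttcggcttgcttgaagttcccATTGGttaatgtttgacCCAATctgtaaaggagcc
Mvd, chr8:122443448-122443512, minus strand: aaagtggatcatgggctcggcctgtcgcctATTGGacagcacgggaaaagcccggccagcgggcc
Lpcat3, chr6:124662872-124662936, plus strand: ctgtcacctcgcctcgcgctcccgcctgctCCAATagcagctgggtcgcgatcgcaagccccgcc
Tpcn2, chr7:145284021-145284085, minus strand: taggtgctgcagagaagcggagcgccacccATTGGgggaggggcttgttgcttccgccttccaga
The letters stand in genes that were higher (Hmgcs1, Mvk, Mvd) and in genes that were lower (Lpcat3, Tpcn2).

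Sterol transport added Stard4, a soluble carrier of cholesterol between membranes (chr18:33199355-33213862, minus strand). In WT at E12.5 it had 45.2, 54.4, 48.6 and 53.6 CPM, and in KO 63, 63.5, 68 and 61.4. At E16.5 it had 33.1, 36.5, 36.1 and 33.6 CPM in WT and 40.3, 40.5, 41.1 and 39.8 in KO. The groups were apart at these stages. They overlapped at E14.5, with WT at 28.8, 31.4, 33.2 and 35.9 CPM and KO at 38.2, 39.5, 43.4 and 34.8. They also overlapped at PND0, with WT at 37, 33.2, 36.7 and 26.3 CPM and KO at 41.4, 38.6, 28.4 and 43.3. Stard4 had a pooled log2 fold change of 0.25 ± 0.0513 (SE), with an adjusted p of 0.0098, and 15 of 16 KO libraries lay above the WT mean. Among 11 other listed SREBP-2 targets, Insig1 (0.47), which holds SREBP in the endoplasmic reticulum, and Srebf2 itself (0.26) also passed. None of the 11 passed as lower. Of 18 listed genes of sterol uptake and transport, Stard4 was among those that passed, none passed as lower, and 4 were higher at each stage. Over all 15750 genes testable at each stage, 1119 were higher at each.

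Among the LXR targets and export genes, the pooled test added Lpcat3, which loads polyunsaturated chains onto phospholipids (chr6:124663027-124704418, plus strand). The E12.5 WT libraries had 26.2, 24, 21.6 and 22 CPM and the KO libraries 20.2, 19.3, 18.2 and 18.6. At PND0 it measured 24.5, 24.7, 26.6 and 25 CPM in WT and 20.2, 19.6, 19.9 and 23.1 in KO. Each KO library was lower than each WT library there, and at E16.5 (WT 19.7 to 20.7 and KO 17.6 to 19.7 CPM), though there the nearest libraries were equal to 3 digits. At E14.5 the WT libraries had 21, 21.5, 23.8 and 19.3 CPM and the KO libraries 20.6, 18.8, 18.7 and 18.6, with overlap. The pooled log2 fold change was -0.21 ± 0.0411 (SE) with an adjusted p of 0.00585, and 16 of 16 KO libraries lay below the WT mean. Lpcat3 shares 334 exonic bases with Emg1 on the other strand, which counting without strand could not separate. Of 15 genes in the list, 5 passed as lower: the sterol exporters Abcg1 (-1.44) and Abca1 (-0.80), Srebf1 (-0.45), Lpcat3 and the desaturase gene Scd2 (-0.19). Arl4c passed as higher (0.22), and the list's median was 0.01.

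Lpcat1, another enzyme that puts fatty acids back onto lysophosphatidylcholine, went the other way (chr13:73467197-73516422, plus strand). At E12.5 it measured 96.1, 98.9, 95.8 and 99.5 CPM in WT and 112, 103, 106 and 103 in KO. At E16.5 it had 109, 97.7, 98.1 and 95.7 CPM in WT and 112, 116, 124 and 116 in KO, and at PND0 156 to 171 CPM against 199, 191, 208 and 206. WT and KO were apart at these 3 stages but not at E14.5, where WT lay between 114 and 116 CPM and KO between 115 and 123. The pooled log2 fold change was 0.17 ± 0.0302 (SE) with an adjusted p of 0.00165, and 16 of 16 KO libraries lay above the WT mean. The change was small at E12.5 (0.09) and E14.5 (0.05) and larger at E16.5 (0.21) and PND0 (0.29), with an unadjusted interaction p of 0.0184 and an adjusted one of 0.289. At PND0 its adjusted p of 0.0513 was just outside the threshold.

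**Figure D3:**
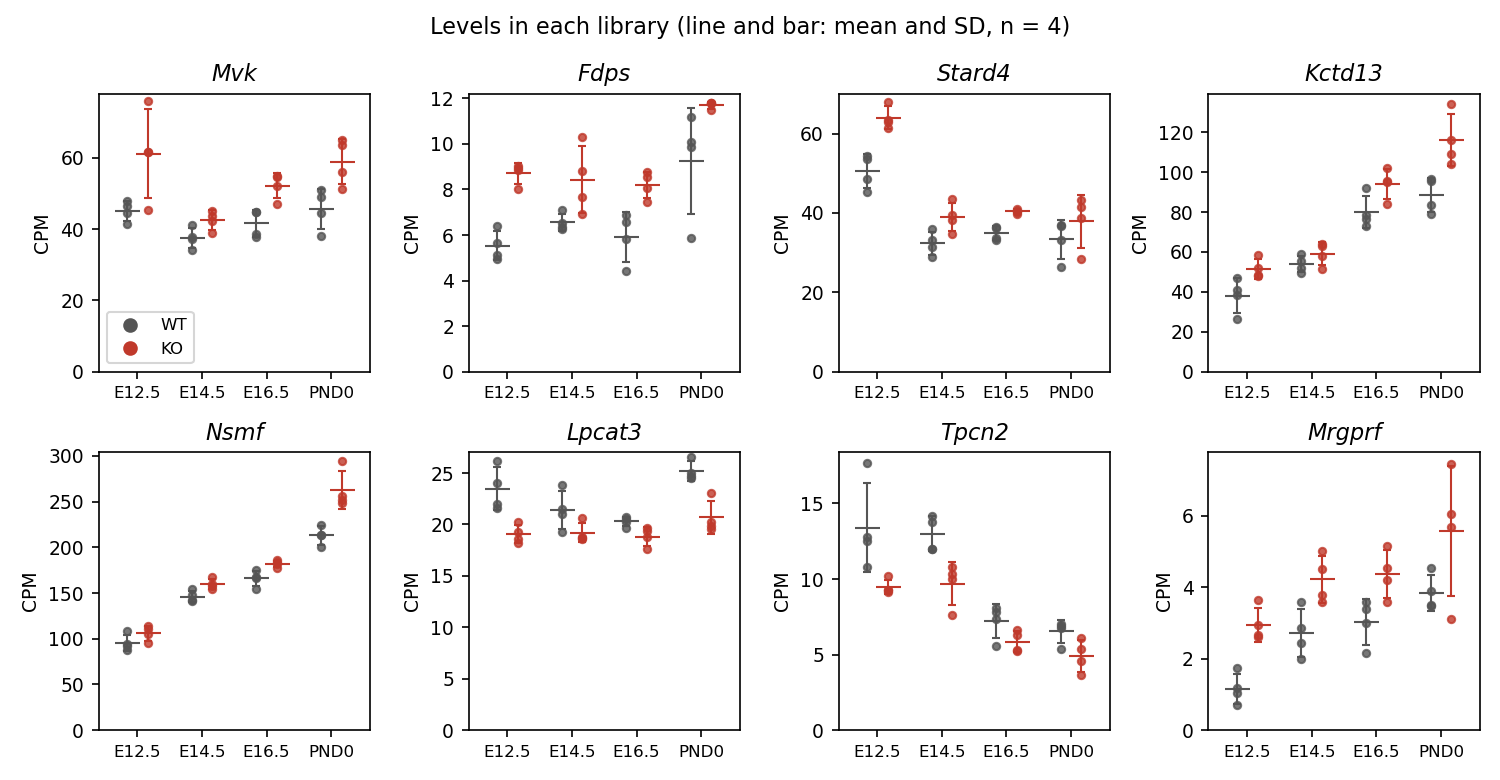
Each panel plots CPM per library against stage for a gene that passed only in the pooled test, with WT in grey and KO in red. Points are libraries, the line is the mean and the bar 1 SD of 4 libraries. Mvk, Fdps, Stard4, Kctd13, Nsmf and Mrgprf lie higher in KO and Lpcat3 and Tpcn2 lower at each stage, with the overlaps given in the text.

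Several of the 22 encode proteins of endosomes, lysosomes and vesicle traffic, a grouping made after the values were seen and carrying no test. Tpcn2, a cation channel of endosomes and lysosomes (chr7:145186524-145284011, minus strand), was the lower gene with the smallest p. At E12.5 the WT libraries lay between 10.8 and 17.7 CPM, the highest being replicate 1, and the KO libraries had 9.11, 9.28, 9.27 and 10.2. At E14.5 it measured 13.8, 12, 12 and 14.2 CPM in WT and 10.8, 7.65, 10.3 and 10 in KO. The groups were apart at both stages. They overlapped at E16.5, with WT at 7.36, 5.59, 7.85 and 8.07 CPM and KO at 6.29, 5.24, 5.28 and 6.64, and at PND0, with WT at 6.78, 6.91, 5.39 and 7.01 and KO at 3.65, 6.08, 5.34 and 4.56. Tpcn2 had a pooled log2 fold change of -0.41 ± 0.0761 (SE), 24.9% lower with an adjusted p of 0.00291, and 16 of 16 KO libraries lay below the WT mean.

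Vps51, a subunit of complexes that tether vesicles returning from endosomes (chr19:6067842-6077231, minus strand), was higher by 0.18 ± 0.0338 (SE) with an adjusted p of 0.00291. It measured 43.7 ± 3.67 CPM in WT and 48.9 ± 2.47 in KO at E12.5 (SD, n = 4 each), and 53.7 ± 2.14 against 57.9 ± 2.31 at E14.5. At E16.5 it had 39.9 ± 2.54 and 46 ± 1.79 CPM, and at PND0 53.7 ± 2.02 and 64 ± 3.94. All 16 KO libraries lay above the WT mean of their stage. Vps51 neighbours the sterol reductase gene Tm7sf2 and shares 532 exonic bases with it on the same strand, 11.8% of its exonic sequence. Tm7sf2 was itself higher by 0.34, so the 2 values are not separate evidence. Pip4p1, a phosphoinositide phosphatase of the lysosomal membrane, was higher by 0.16 ± 0.036 (SE) with an adjusted p of 0.0375. Its change was 0.23 at E12.5 and 0.27 at PND0 but 0.02 at E14.5, and 19.5% of its exonic bases lie opposite Apex1. Atp10b, a lipid flippase, was lower by 0.80 ± 0.186 (SE), an adjusted p of 0.0465, at a mean of 1.14 CPM. Its WT libraries ran from 0.798 to 2.51 CPM and its KO libraries from 0.301 to 1.5. Without E12.5 KO replicate 1 and E16.5 WT replicate 1 it missed the threshold (adjusted p = 0.0571). Arrdc2, an adaptor of the arrestin family, was higher by 0.40 ± 0.0739 (SE), an adjusted p of 0.00323, with 15 of 16 KO libraries above the WT mean.

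Tpcn2 and Mrgprf lay close to Dhcr7 on chromosome 7, at 1.34 Mb and 1.45 Mb. Mrgprf, an orphan receptor gene of the Mas-related family (chr7:145300828-145309557, plus strand), had low levels and the widest relative change of the 18 higher genes that passed only in the pooled test. At E12.5 it measured 0.717, 1.17, 1.73 and 1.04 CPM in WT and 2.94, 2.6, 2.65 and 3.63 in KO, with no overlap. At E14.5 it measured 2.43, 3.57, 2 and 2.86 CPM in WT and 5, 3.57, 3.78 and 4.51 in KO. At E16.5 it had 2.15, 3, 3.59 and 3.39 CPM in WT and 5.16, 4.21, 4.52 and 3.57 in KO. At these stages the groups met at their nearest libraries. At PND0 it had 3.89, 3.49, 3.46 and 4.52 CPM in WT and 6.05, 5.68, 3.1 and 7.44 in KO, where KO replicate 3 lay below all of WT and the others above. The pooled log2 fold change was 0.73 ± 0.126 (SE), 65.4% higher with an adjusted p of 0.00125, and 15 of 16 KO libraries lay above the WT mean. Within 10 Mb of Dhcr7, Dhcr7 left out, 5 of 137 tested genes (3.65%) passed the pooled test, and 52 of 19184 (0.271%) did elsewhere. The other 3 were Dusp8, a phosphatase gene at 1.73 Mb (0.29), the short intronic transcript Gm14376 at 0.621 Mb (-1.55) and Acte1 at 0.0184 Mb. Gm14376 was low, at a mean of 0.323 CPM, and could be tested at no stage alone. Its call was kept in 25 of the 32 fits without 1 library and lost with the replicate block. Acte1 had 0 counts in all 16 WT libraries and 29 to 103 in each KO library, at least 414-fold higher in KO when the WT libraries together are given 3 counts. Whether position has a part in the values of Tpcn2 and Mrgprf was not tested.

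Kctd13, an adaptor of a ubiquitin ligase that acts on RhoA (chr7:126928879-126945631, plus strand), lies 16.9 Mb from Dhcr7. At E12.5 it measured 26.4, 38.2, 46.8 and 41 CPM in WT and 48.4, 58.6, 51.8 and 47.7 in KO. At PND0 it measured 83.7, 95.4, 78.9 and 96.4 CPM in WT and 116, 109, 134 and 104 in KO. The groups were apart at these stages. They overlapped at E14.5, with WT at 58.8, 55.4, 51.7 and 49.4 CPM and KO at 63.8, 63.2, 51.5 and 58.2, and at E16.5, with WT at 91.8, 78.6, 76.7 and 73.2 and KO at 102, 95.5, 94.8 and 83.9. Kctd13 had a pooled log2 fold change of 0.30 ± 0.0591 (SE) with an adjusted p of 0.00843, and 15 of 16 KO libraries lay above the WT mean. Lztr1, an adaptor of a ligase that acts on Ras proteins, was higher by 0.14 ± 0.0325 (SE).

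Nsmf carries signals from glutamate receptors at the synapse to the nucleus (chr2:25054355-25062881, plus strand). It measured 88, 92.1, 108 and 94.7 CPM in WT at E12.5 and 95.1, 111, 105 and 114 in KO, with overlap. The E14.5 values were 154, 148, 142 and 141 in WT and 168, 158, 160 and 154 in KO, and those of E16.5 175, 155, 168 and 167 against 177, 186, 184 and 182. At PND0 they were 213, 225, 200 and 213 in WT and 256, 249, 294 and 252 in KO. At the last 3 stages each KO library was above each WT library, by a narrow margin at E14.5 and E16.5. In both genotypes Nsmf was higher at each later stage. The pooled log2 fold change was 0.18 ± 0.0351 (SE) with an adjusted p of 0.00636, and the single-stage values were 0.13, 0.13, 0.13 and 0.31.

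The remaining members of the 22 had modest changes, and several sat near the threshold. Aggf1, named for its effect on blood vessel growth, was higher by 0.14 ± 0.0284 (SE), an adjusted p of 0.0132, with WT and KO apart at 3 stages. Bok, a member of the Bcl-2 family that promotes cell death, was higher by 0.26 ± 0.0565 (SE), an adjusted p of 0.0205. Its change was 0.38 at E12.5, 0.20 at E16.5 and 0.41 at PND0, but 0.04 at E14.5, where WT measured 28 ± 1.59 CPM and KO 28.6 ± 4.01 (SD, n = 4 each). Mrps18a, a protein of the mitochondrial ribosome, was higher by 0.24 (adjusted p = 0.0257), and Ampd2, which deaminates AMP, by 0.14 (0.0269). Map11, a microtubule-associated protein, was higher by 0.19 (0.0319). Ypel3 was higher by 0.19 (0.0413), mostly at PND0 (0.37), and lies 17 Mb from Dhcr7. Zfp275, a zinc finger gene of the X chromosome, was lower by 0.19 (0.0463), with -0.41 at PND0 and -0.06 at E16.5. With a covariate for sex-linked genes, Ypel3, Zfp275, Atp10b and Lztr1 missed the threshold at adjusted p of 0.0519, 0.0538, 0.0538 and 0.0584. With each of the 32 libraries left out in turn, 14 of the 22 passed every time. Mrps18a passed in 26 of these fits, Ampd2 in 20, Map11 in 16, Pip4p1 and Ypel3 in 15 each, Atp10b in 14, Zfp275 in 7 and Lztr1 in 6.

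How far the shared effect carries to libraries that did not choose the genes was read by leaving out a stage. Genes that passed in the other 3 stages had the same sign in the stage left out in 50 of 56 cases for E12.5 (89.3%), 32 of 33 for E14.5 (97%), 35 of 39 for E16.5 (89.7%) and 33 of 34 for PND0 (97.1%). Over all genes the share of same signs was 55.1%, 50.8%, 45.7% and 54.3%. The same sign with an unadjusted p under 0.05 was seen for 30, 27, 25 and 22 of these genes, or 53.6%, 81.8%, 64.1% and 64.7%, against 2.79%, 5.17%, 4.22% and 10.84% of all genes. Among the genes called from 3 stages, 1 had the opposite sign at an unadjusted p under 0.05: Slc4a1, the anion exchanger of red cells, at PND0. The genes are not independent of each other, so these shares are a description. The fits without E12.5, E14.5, E16.5 and PND0 passed 10, 10, 6 and 5 of the 22, so these shares mostly describe other genes. Of the 22, Mvk, Fdps and Mrgprf passed whichever stage was left out, and Aggf1, Map11, Ypel3, Zfp275 and Atp10b passed in none of these 4 fits.

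**Figure D4:**
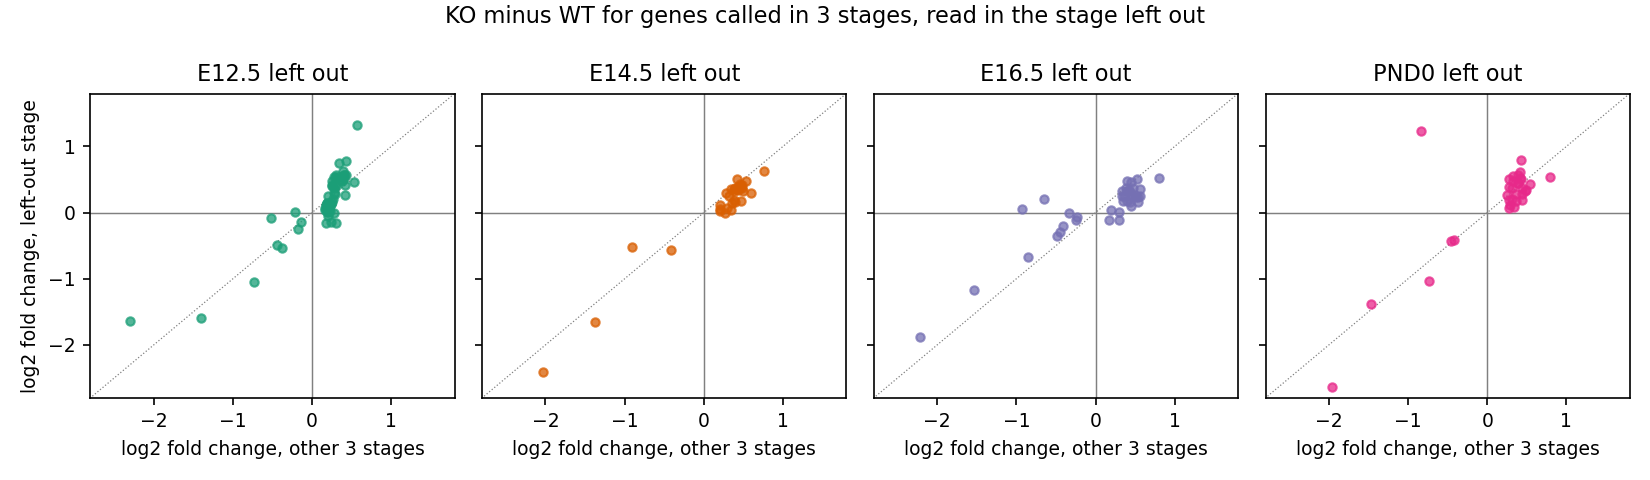
Each panel leaves out a stage and plots, for genes that passed in the other 3 (55, 32, 38 and 33 points, Acte1 not drawn), the log2 fold change in the stage left out against that in the other 3. The dotted line marks equal values. Points in the upper right and lower left have the same sign in both, and the point at the upper left for PND0 is Slc4a1.

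Other genes with the same sign at each stage had already passed at a stage alone. The libraries of WT and KO did not overlap at any of the 4 stages for 12 genes, or 0.0762% of those testable at each stage, and all 12 were among the 59: Abcg1, Dhcr7, Acte1, Srebf1, Abca1, Mvd, Hmgcs1, Nsdhl, Sqle, Aacs, Fdft1 and Sh2d3c. Sh2d3c, an adaptor of signalling from receptor tyrosine kinases and not in the sterol lists, measured 30.8 ± 0.886 CPM in WT and 37.6 ± 0.648 in KO at E12.5 (SD, n = 4 each). The E14.5 values were 34.3 ± 0.839 and 44.1 ± 3.22 CPM, those of E16.5 34.4 ± 1.74 and 43.2 ± 1.65, and those of PND0 42.5 ± 6.39 and 62.4 ± 11. Its pooled log2 fold change was 0.38 ± 0.0493 (SE) with an adjusted p of 5.93e-06. Aacs, which activates acetoacetate for lipid synthesis, was higher by 0.45, and Rps6kl1, a kinase-like gene, by 0.41. Pcyt2, of phosphatidylethanolamine synthesis, was higher by 0.30 and Idh1, a source of cytosolic NADPH, by 0.22. Rnf145, a ubiquitin ligase of the endoplasmic reticulum that acts in sterol control, was lower by 0.13. Ptch1, the receptor and target of Hedgehog signals, passed as lower (-0.36, adjusted p = 0.0257) among 17 listed Hedgehog targets. Its change was -0.22, -0.19 and -0.21 before birth and -0.86 at PND0, with an unadjusted interaction p of 0.000748, and without PND0 the pooled value was -0.20 with an adjusted p of 0.671. The call of Ptch1 was kept in 25 of the 32 fits without 1 library and in 1 of the 4 without a stage. It was lost with limma-voom (adjusted p = 0.0547), with no filter (0.0944) and with the replicate block. The list's median was -0.10, with 7 of 17 lower at each stage. Of the 15750 genes testable at each stage, 1036 were lower at each, and genes of a list are not independent of each other.

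Mgat4b, a glycosyltransferase gene, also passed at no single stage (0.20, adjusted p = 0.0255) but its sign at E14.5 was opposite (-0.01). Syne3, a protein of the nuclear envelope, had the next smallest p among genes without 1 shared sign, and did not pass (-0.67, adjusted p = 0.116).

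Of the lists drawn up by function, 18 had no gene past the threshold in edgeR, among them those of neurons, synaptic receptors, cell cycle, isoprenoid branch and oxysterol synthesis. By that choice none of their 253 tested genes passed. Of these genes 21 had an unadjusted p under 0.05, where 10.7% of all genes tested did and 0.302% passed in edgeR. In DESeq2 1 of them passed, in limma-voom 3, and by the signed sum of the single-stage z values 6. The 6 were Atf4 (0.23, adjusted p = 0.0715), Jun (0.30, 0.247), Notch2 (-0.20, 0.224), Top2a (-0.18, 0.201), Kcnq3 (0.19, 0.420) and the cyclin gene Ccnd1. Of 17 tested genes listed for ferroptosis and the defence against it, Lpcat3 alone passed, as lower. Its product loads polyunsaturated chains and is not itself a defence enzyme. The 14 neuronal genes had a median log2 fold change of 0.08 and 5 were higher at each stage, and the 18 cell cycle genes had a median of -0.06 and 6 were lower at each stage. Of the 15750 genes testable at each stage, 1119 were higher and 1036 lower at each, and genes of a list are not independent of each other.

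Markers of other cell types were read in the same fit, since whole brains can differ in what they hold, and in bulk RNA fewer cells of a type and less RNA per cell cannot be told apart. None of 120 genes in 14 marker lists passed in edgeR, 17 had an unadjusted p under 0.05, and Hbb-bh1 passed in limma-voom but none in DESeq2. Over all genes tested, 0.302% passed in edgeR and 10.7% had an unadjusted p under 0.05. At such a share 120 genes may well hold no call, so its absence says nothing of tissue content. The 8 muscle genes tested, of 9 listed, were all below 0 in the pooled fit, with a median log2 fold change of -0.76. Their summed level was 23.5 to 192 CPM in WT and 9.33 to 30.8 in KO at E12.5, and 5.18 to 13.2 CPM in both genotypes at the later stages. E12.5 WT replicate 1 had 16.7 CPM of the muscle gene Myh8, against 4.65 to 6.93 in the others of its group. It was also highest for Pdgfra (209 against 44.5 to 78.9) and Sp7 (8.54 against 0.635 to 1.47), and lowest for Lhx2 (180 against 274 to 352). Slc4a1, Cx3cr1, Kcne2 and En2 were highest in other WT libraries of that stage. Without E12.5 WT replicate 1, 17 of the 22 still passed. All 10 erythroid genes had a log2 fold change below 0, with a median of -0.25, and their sum was 2010 to 9150 CPM in WT and 1620 to 5010 in KO at E12.5 but at most 269 CPM in WT and 236 to 2300 in KO at PND0. Of 8 forebrain genes, 4 were higher at each stage and the median was 0.14, with a sum of 582 to 977 CPM in WT and 764 to 1140 in KO at E12.5. At PND0 that sum was 1000 to 1410 CPM in WT and 1080 to 1870 in KO. Of the 15750 genes testable at each stage, 1119 were higher at each. The medians of the other lists lay between -0.47 (hindbrain, 4 genes tested) and 0.05 (vessels), and no marker listed was at 0 in all libraries. Taken by stage, medians beyond 1 in size were those of muscle (-1.45), skin and bone (-1.32) and erythroid genes (-1.08) at E12.5, and of erythroid (1.89) and hindbrain genes (-3.14) at PND0. A stage median takes only the genes tested at that stage. Of the 4 hindbrain genes in the pooled fit, Hoxa2 was not tested at PND0, so -3.14 rests on fewer genes, at low levels. The summed level of the 10 listed hindbrain genes at PND0 was 1.8 to 9.1 CPM in WT and 0.4 to 0.661 in KO, without overlap. Choroid plexus genes summed to 411 to 719 CPM in WT and 710 to 1110 in KO at PND0, with a median of 0.13. The part of tissue content in the 22 genes was not tested.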

How the data were processed

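PolyA-selected RNA of 32 whole brains was sequenced as 150-base paired reads on an Illumina NovaSeq, per the labels' protocols. The authors deposited raw counts per gene symbol, 1 value per library, with no normalization. Per the submitters' processing notes, HISAT2, SAMtools, featureCounts, DESeq2 and mm10 were used. Versions, annotation and strand setting are not given in the sources used here, and without strand, overlapping genes cannot be told apart.

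Counts were tested in R 4.3.3 with edgeR 4.0.16: TMM factors, genes kept by a minimum count of 10 and total of 15, and a robust quasi-likelihood fit of stage plus genotype over 32 libraries, with Benjamini-Hochberg adjustment over all genes tested and a threshold of 0.05. Each stage was also fitted alone, and the difference between stages by an interaction term. Alternatives were DESeq2 1.42.0, limma-voom (limma 3.58.1), other size factors, no filter, covariates, a replicate block, length offsets, signed z values and left-out libraries or stages. Log2 fold changes use a prior count, so those of low genes are understated, and CPM used TMM-scaled totals. The fit was tested on simulated data. Depth, 13.87 M to 28.32 M counts, sets the precision of low genes.

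Groups came from the labels. No 2 libraries of a group agreed within sampling noise: the chi-square per degree of freedom was 2.899 or more in 48 pairs. Coordinates are GRCm38 (GENCODE M21). Of 55291 symbols, 1592, Map11 among them, matched no gene.

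The members and the 40 gene lists were chosen with earlier results of these data known. Named by rule were Dhcr7, up to 12 higher and 12 lower pooled-only genes with the smallest p (4 were lower), those with the largest change, up to 4 called genes or the leading gene of each list, and leading genes outside them. The rest of the 22 are named so that each member is accounted for, and Sh2d3c, Rps6kl1, Pcyt2, Idh1, Rnf145, Dusp8, Cyth2, Mgat4b and the genes of other fits were chosen after their values were seen. Some listed genes are counted but not reported by name here.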

Additional observations from a re-analysis of the deposited data

Results flagged for a closer look

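Values in 15 of 192 groups of 4 libraries stood apart from the other 3 by Dixon's criterion (gap over range above 0.829). The groups covered library measures and 22 genes named by rule, which are not the same 22 as the pooled-only genes. Of the pooled-only genes, Mrps18a, Ampd2, Map11, Pip4p1, Ypel3 and Lztr1 were not checked. Chance marks about 1 group in 20. In E12.5 KO replicate 1 the ribosomal RNA share was 5.639%, Bok was high at 43.4 CPM and Zfp275 stood apart at 47.6 CPM. The pooled log2 fold change without that library was 0.24 for Bok and -0.18 for Zfp275, each still past the threshold (adjusted p = 0.0228 and 0.0436). E16.5 WT replicate 1 had a ribosomal RNA share of 3.754%. E12.5 WT replicate 4 had 27.41 M counts, the most of its group.

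Among the checked genes that passed only in the pooled test, other values also stood apart. They were Tpcn2 in E12.5 KO replicate 4 (10.2 CPM) and PND0 WT replicate 3 (5.39 CPM), Vps51 in E12.5 WT replicate 1 (38.2 CPM) and Arrdc2 in E14.5 KO replicate 3 (10.9 CPM). The same held for Lpcat3 in E14.5 KO replicate 1 (20.6 CPM), Nsmf in PND0 KO replicate 3 (294.0 CPM) and Gm3571 in E12.5 WT replicate 1 (6.69 CPM). Tpcn2, Vps51, Arrdc2, Lpcat3, Nsmf and Gm3571 passed whichever single library was left out. Among genes called at a stage alone, Dhcr7 in PND0 WT replicate 4 (61.3 CPM), Insig1 in E14.5 KO replicate 2 (101.0 CPM) and Mvd in E16.5 KO replicate 4 (52.7 CPM) stood apart.

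The KO effect differed between stages, by edgeR's interaction test, for Dhcr7 (adjusted p = 0.0349), whose log2 fold change ran from -1.64 at E12.5 to -2.63 at PND0, and for Gm9800 (adjusted p = 0.0349). With 1 library left out in turn, this call was kept in 15 of 32 fits for Dhcr7 (adjusted p from 0.000147 to 0.149) and in 16 of 32 for Gm9800 (0.00135 to 0.161), and in 12 of the 32 no gene passed.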

How the results depend on the processing

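The pooled test passed 47 genes higher, 12 lower and 22 at no single stage, and the interaction test 5. The counts moved by over 1.5 times as follows, in the order higher, lower and at no single stage. DESeq2 gave 129, 29 and 58, with 346 by interaction. Limma-voom with sample weights gave 99, 21 and 56, and signed z values 113, 66 and 92. The ribosomal RNA covariate gave 40 at no single stage, the length offsets 36, and no filter 7, with 11 by interaction. Without E14.5 there were 29 higher and 4 lower, without E16.5 28 higher and 9 at no single stage, and without PND0 28, 6 and 7. Left out together, E12.5 KO replicate 1 and E16.5 WT replicate 1, a choice made after seeing the data, gave 135, 21 and 100, with 731 by interaction. Leaving out 1 library gave 39 to 91 higher, 10 to 16 lower and 14 to 56 at no single stage. The interaction count then ran from 0 (without E12.5 WT replicate 2) to 797 (without E12.5 KO replicate 1), and was 36 without E12.5 WT replicate 3. Dhcr7 stayed between -2.17 and -2.09 in these fits.

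The replicate block gave 40 higher, 7 lower and 13 at no single stage, with Dhcr7 at -2.13. Of the 22 pooled-only genes, 12 passed under it. Those that missed the threshold were Stard4 (adjusted p = 0.0631), Aggf1, Bok, Mrps18a, Ampd2, Pip4p1, Ypel3, Zfp275, Atp10b and Lztr1. Same-numbered libraries of a stage correlated between -0.278 and 0.305 over 16 pairs, 4 of which matched their own number best. The labels do not state litters, so these values cannot show whether equal numbers mark paired samples.

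Of the 59 genes, 46 passed with each single library left out, 24 with each stage left out, and none changed sign under any alternative. For the 22 these were 14 and 3. Under the alternatives that left out neither a single library nor a stage, 10 of the 22 passed every time. Mvk, Fdps and Mrgprf passed under every alternative listed. The share of same signs in the stage left out was 97% for E14.5 and 97.1% for PND0, against 89.3% for E12.5. Signs reversed for 4 genes that did not pass the pooled test. Rpl23 was at -0.02 with limma-voom and -0.01 without PND0, and Gm9800 at -0.05 without PND0. Sp7 was at 0.17 with limma-voom, 0.00 without E12.5 and from -0.43 to 0.07 with 1 library left out. Eif2s3y was at -0.86 with limma-voom and from -0.08 to 0.67 with 1 library left out. The causes were not tested.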

Other observations

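A further 29 genes, 27 higher and 2 lower, passed under DESeq2, limma-voom and the signed z values but not in the reported edgeR fit, where their adjusted p ran from 0.0503 to 0.185. They were singled out after these results were seen. All 29 had the same sign at each stage and 24 passed at no stage alone. Several act in lipid metabolism: Hsd17b7 (log2 fold change 0.28), a reductase of sterol synthesis, Acly (0.17), which makes cytosolic acetyl-CoA, the fatty acid desaturase gene Fads1 (0.13) and Tecr (0.15), of very long chain fatty acid synthesis, were higher. Gpam (-0.19), the first enzyme of glycerolipid synthesis, was lower. Gdpd5, a glycerophosphodiester phosphodiesterase gene, was higher by 0.18, with single-stage values of 0.14, 0.12, 0.15 and 0.29.

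The stress response factor gene Atf4 was higher by 0.23, with 0.28 at E12.5 and 0.43 at PND0 against 0.09 and 0.07 at the stages between. Genes of small GTPase control and vesicle traffic in this group were Cyth2 (0.19), Git1 (0.15), Acap3 (0.17) and Arl8a (0.16), a regulator of lysosome position. Iqgap2, a scaffold protein of the cytoskeleton, was lower by 0.22, with a narrow range over the stages of -0.25, -0.23, -0.17 and -0.25. Fbxo7, an adaptor of a ubiquitin ligase, was higher by 0.22 and had passed at a stage alone.

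Most of these small changes were largest at E12.5 or PND0. Exceptions were Hsd17b7, Fbxo7 and Gpr137c, largest at E14.5, and Acly and Fam102a, largest at E16.5.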
